A study of Mus musculus with 2 samples.

Results

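Gene-desert open sites are stretches of accessible chromatin that lie outside protein-coding genes and far from the start of every such gene. The tissue was gastrocnemius, a fast calf muscle, from female B6CASTF1/J mice aged 14 days, and accessibility was read by DNase-seq, in which DNase I cuts DNA that is free of nucleosomes. The study held 1 group of 2 libraries, labelled biological replicates 1 and 2, with no second condition. The labels name 3 females for each library, give both libraries the same donor record, and name a pair of sequencing instruments for replicate 2 alone, so that an instrument effect and the replicate cannot be told apart. The strain is an F1 hybrid of C57BL/6J with CAST, while all positions are on mm10, the C57BL/6J reference. A shared site was a place where strict peaks of both libraries overlapped by at least 1 bp. A gene-desert site had its midpoint outside every protein-coding gene body and more than 100 kb from every protein-coding transcription start site (TSS) of GENCODE. No distance from the far end of a gene was set, so that a site could lie close to one. By this rule 5227 of 68349 shared sites were gene-desert sites, or 7.65% (95% Wilson interval 7.45 to 7.85%). Of the remaining shared sites, 17802 were nearer intergenic sites, more than 1 kb and at most 100 kb from a TSS, 21671 lay inside protein-coding genes and 23649 lay within 1 kb of a TSS.

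Gene deserts are long stretches without protein-coding genes that often flank genes of developmental regulators. Many hold enhancers, short DNA elements that bind transcription factors and act on a promoter over long distances through a loop of chromatin. CTCF, a zinc-finger protein, anchors such loops and marks the borders of chromatin domains. In muscle, the basic helix-loop-helix factors MyoD and myogenin bind the E-box CAGCTG, and MEF2 proteins bind a neighbouring AT-rich motif at many muscle enhancers.

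The sequences below show what the strongest sites with these motifs looked like in the RefSeq mm10 genome, as 150 bases of the plus strand around the site midpoint. The first set shows the 3 gene-desert sites with the highest signal among those with an exact CTCF consensus match, which is in capitals. Site 1 (chr8:20122149-20122298) lay beside the pseudogene Gm21769 and was the strongest gene-desert site of all, with peak signals of 35.3 (replicate 1) and 30.7 (replicate 2). Site 2 (chr4:9135907-9136056), 133 kb from Clvs1, had 8.56 and 8.45, and site 3 (chr1:184448037-184448186), 284 kb from Hlx, had 7.71 and 6.38. All 12 bases of each CTCF match lay in footprints of both libraries, where a footprint is a short stretch protected from cutting within an open site.
CTCF site 1: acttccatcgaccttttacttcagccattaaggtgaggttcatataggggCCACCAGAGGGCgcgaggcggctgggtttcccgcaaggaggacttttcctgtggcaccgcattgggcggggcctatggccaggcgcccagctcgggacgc
CTCF site 2: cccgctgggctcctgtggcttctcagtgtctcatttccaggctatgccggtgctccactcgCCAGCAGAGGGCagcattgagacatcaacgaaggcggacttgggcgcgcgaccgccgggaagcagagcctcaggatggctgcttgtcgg
CTCF site 3: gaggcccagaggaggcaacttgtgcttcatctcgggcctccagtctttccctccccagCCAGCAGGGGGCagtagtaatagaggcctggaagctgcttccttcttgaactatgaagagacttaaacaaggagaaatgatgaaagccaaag

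The second set shows the 3 strongest sites with the E-box CAGCTG, in capitals. Site 1 (chr13:107831327-107831476), in Zswim6, had 16.3 in replicate 1 and 13.1 in replicate 2, and held 2 matches, of which the first lay wholly in footprints of both libraries. Site 2 (chr13:110903377-110903526) was at 11.7 and 8.86, in the long non-coding RNA 4930526H09Rik and 352 kb from Actbl2, and its 1 match lay in no footprint of both libraries. Site 3 (chr4:53263937-53264086) was at 11.4 and 8.79, in the non-coding gene AI427809 and 104 kb from Abca1, and 1 of its 2 matches lay in footprints of both.
E-box site 1: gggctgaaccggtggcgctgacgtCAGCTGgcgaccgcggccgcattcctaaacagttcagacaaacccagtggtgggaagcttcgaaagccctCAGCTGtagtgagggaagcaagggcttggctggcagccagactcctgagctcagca
E-box site 2: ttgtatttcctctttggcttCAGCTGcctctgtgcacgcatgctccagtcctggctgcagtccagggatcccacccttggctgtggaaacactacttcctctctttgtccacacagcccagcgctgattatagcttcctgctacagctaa
E-box site 3: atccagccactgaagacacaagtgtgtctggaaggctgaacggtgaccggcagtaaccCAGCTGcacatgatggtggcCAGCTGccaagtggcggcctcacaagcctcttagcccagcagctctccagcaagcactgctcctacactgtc

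The third set shows the 3 strongest of only 5 gene-desert sites that held CAGCTG and the MEF2 consensus together, with both in capitals. They were chr14:100750217-100750366 (signal 3.16 in replicate 1 and 2.43 in replicate 2, nearest gene Prr30 at 450 kb), chrX:11839677-11839826 (1.72 and 1.74, nearest gene Bcor at 241 kb) and chr13:107879587-107879736 (1.56 and 1.08, nearest GENCODE protein-coding TSS that of Smim15 at 165 kb). The chr13 site lay in the body of Zswim6, which GENCODE lists as non-coding and RefSeq as protein-coding. None of these 3 CAGCTG matches overlapped a footprint of both libraries.
E-box and MEF2 site 1: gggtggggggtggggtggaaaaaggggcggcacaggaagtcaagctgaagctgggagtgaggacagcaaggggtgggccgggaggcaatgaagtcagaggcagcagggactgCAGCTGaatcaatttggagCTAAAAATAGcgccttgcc
E-box and MEF2 site 2: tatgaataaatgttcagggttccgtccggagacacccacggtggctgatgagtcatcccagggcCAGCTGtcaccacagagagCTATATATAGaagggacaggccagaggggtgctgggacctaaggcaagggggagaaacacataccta
E-box and MEF2 site 3: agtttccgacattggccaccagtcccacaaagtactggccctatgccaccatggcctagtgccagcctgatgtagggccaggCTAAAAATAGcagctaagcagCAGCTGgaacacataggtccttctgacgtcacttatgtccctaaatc

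The fourth set shows the strongest site of the longest run (Firre), of the most densely filled desert (Zfp36l1) and of the desert with most sites (Myc), all described further on. Here capitals mark every base that lay in a footprint of both libraries. They were chrX:50603017-50603166 in the non-coding gene Firre (77 bases in capitals), chr12:79887317-79887466 in the desert of Zfp36l1 (54 bases) and chr15:62106657-62106806 in the desert of Myc (84 bases). In the Myc desert the capitals cover a CAGCTG at bases 64 to 69 of the window.
Firre cluster site 1: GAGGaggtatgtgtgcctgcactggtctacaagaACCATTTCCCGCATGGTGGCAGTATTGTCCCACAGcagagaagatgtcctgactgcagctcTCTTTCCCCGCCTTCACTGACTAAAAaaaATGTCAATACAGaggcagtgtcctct
Zfp36l1 desert site 1: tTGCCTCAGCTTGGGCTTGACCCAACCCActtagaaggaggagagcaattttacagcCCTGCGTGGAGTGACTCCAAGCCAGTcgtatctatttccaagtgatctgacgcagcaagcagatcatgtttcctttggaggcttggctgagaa
Myc desert site 1: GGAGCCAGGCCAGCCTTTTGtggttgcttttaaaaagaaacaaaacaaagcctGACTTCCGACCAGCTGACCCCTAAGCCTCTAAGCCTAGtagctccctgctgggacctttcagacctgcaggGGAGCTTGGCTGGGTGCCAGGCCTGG

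The tissue label was checked at promoters before the gene-desert sites were described. The muscle genes Acta1, Ckm, Des, Myod1 and Mylpf all had a shared promoter site, while Alb of liver, Csf1r of macrophages and Myh6 of heart muscle had none. The satellite-cell gene Cdh15 reached 5.83 in replicate 1 and 6.02 in replicate 2, the fibroblast gene Col1a1 8.16 and 9.35 and the endothelial gene Pecam1 0.841 and 0.745. In bulk tissue, fewer cells of a type and weaker opening per cell cannot be told apart.

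Open sites were sparse in the deserts. Leaving out chromosome Y, gene-desert DNA made up 774.5 Mb or 30.3% of the sequenced genome and held 6.75 shared sites per Mb (95% exact Poisson interval 6.57 to 6.93). Nearer intergenic DNA held 24.3 per Mb (24.0 to 24.7), 3.604 times as many, and all other DNA together held 35.4. The deposited per-base false discovery rates, from the same libraries and so not independent of the peaks, gave the same order. Bases listed below 0.05 made up 0.452% of gene-desert DNA in replicate 1 and 0.400% in replicate 2, against 1.29% and 1.16% of nearer intergenic DNA.

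The density fell from each distance bin to the next. The bins were too wide to show whether there was a step at 100 kb. From the lowest to the highest distance from a TSS, the density was 31.4 sites per Mb at 1 to 10 kb, 24.7 at 10 to 50 kb, 18.3 at 50 to 100 kb, 12.2 at 100 to 200 kb, 8.13 at 200 to 300 kb, 5.30 at 300 to 500 kb, 2.07 at 500 to 1000 kb and 0.687 beyond 1000 kb. Only 50 gene-desert sites lay beyond 1000 kb. The 3 sites just inside the limit were 100007 to 100017 bp from a TSS, with signals of 2.54 to 4.11 in replicate 1 and 2.15 to 3.99 in replicate 2. The 3 just outside were 99834 to 99959 bp away, with 0.466 to 1.964 in replicate 1 and 0.379 to 1.90 in replicate 2.

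**Figure D1:**
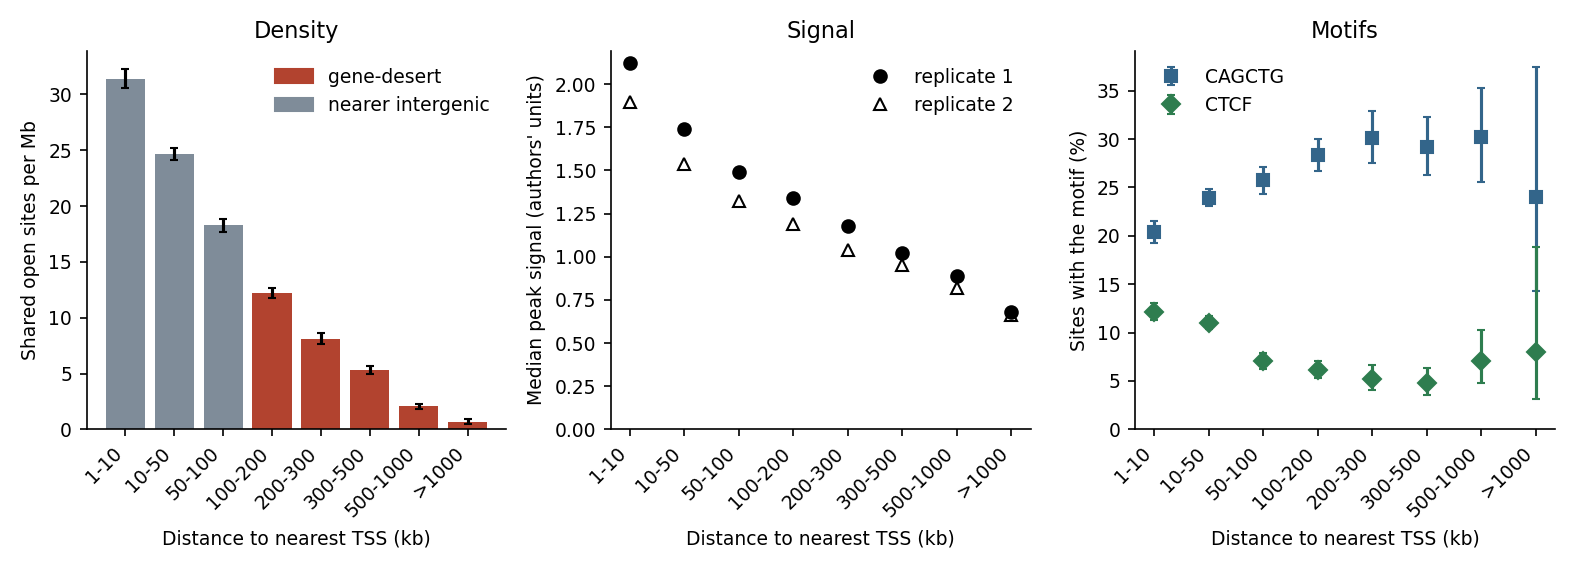
Shared open sites by distance from the nearest protein-coding TSS (kb, x axis in all panels), with gene-desert distances in red in the left panel. The left panel gives sites per Mb with 95% Poisson intervals, the middle panel the median peak signal of each replicate in the authors' units, and the right panel the percentage of sites with a CAGCTG or CTCF match with 95% Wilson intervals. Density is 31.4 sites per Mb at 1 to 10 kb and 0.687 beyond 1000 kb, the median signal falls with distance in both replicates, and the share with CAGCTG is lowest at 1 to 10 kb.

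The chromosomes differed in how full their deserts were. Chromosome 13 had 434 gene-desert sites or 11.5 per Mb of desert (10.4 to 12.6) and chromosome 17 had 225 or 10.04 (8.77 to 11.4), while chromosome X had 145 or 2.503 (2.11 to 2.95). Over all classes chromosome X held 1554 shared sites, the fewest except for chromosome Y. Chromosome Y, in these female mice, held 1 gene-desert site and 8 shared sites in all.

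Gene-desert sites were weaker than nearer ones. Their median peak signal, the authors' value with a scaling that is not stated, was 1.21 in replicate 1 and 1.07 in replicate 2, against 1.78 and 1.57 at nearer intergenic sites. The difference was -0.55 on the log2 scale in each replicate, and on the mean of both replicates the ratio of medians was 0.679. The middle 80% of gene-desert sites ran from 0.594 to 3.32 in replicate 1 and from 0.585 to 2.81 in replicate 2. Their width did not set them apart, with a median of 180 bp in both classes. When the shared sites outside promoters were divided into 4 equal parts by signal, 42.9% of gene-desert sites were in the weakest part and 14.2% in the strongest, against 21.8% and 29.6% of nearer intergenic sites. Within the deserts, the median signal was 1.34 in replicate 1 and 1.19 in replicate 2 at 100 to 200 kb, and 0.678 and 0.661 beyond 1000 kb.

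Since a site had to be a strict peak in both libraries, the shared sites were chosen for being found in both, and the likeness of the replicates at them is a description. The Spearman correlation of their signals across the 5227 sites, which share their libraries and are not independent replicates, was 0.906, against 0.943 across nearer intergenic sites. After centring on the median ratio of all shared sites, 39 gene-desert sites (0.746%, interval 0.546 to 1.02%) differed more than 2-fold between the replicates, against 0.483% of nearer intergenic sites and 0.373% of all shared sites. Of these 39 sites, 14 were higher in replicate 2 and 25 in replicate 1. Among the upper 50% of gene-desert sites by mean signal, the largest difference was at chr4:89422021-89422180, at the non-coding gene Gm12610 and 111 kb from the cell-cycle inhibitor gene Cdkn2b, with 0.851 in replicate 2 and 3.05 in replicate 1. In the other direction the largest in this upper 50% was at chr9:17987741-17987900, 304 kb from Chordc1, with 1.60 in replicate 2 and 0.728 in replicate 1. Of the 7363 strict gene-desert peaks of replicate 1, 71.2% overlapped a strict peak of replicate 2 and 92.2% a permissive one. Of the 6133 of replicate 2, 85.7% overlapped a strict peak of replicate 1. The corresponding strict shares of nearer intergenic peaks were 77.2% and 87.9%. Gene-desert peaks found in a single library were weak, with a median of 0.615 in replicate 1 and 0.545 in replicate 2.

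**Figure D2:**
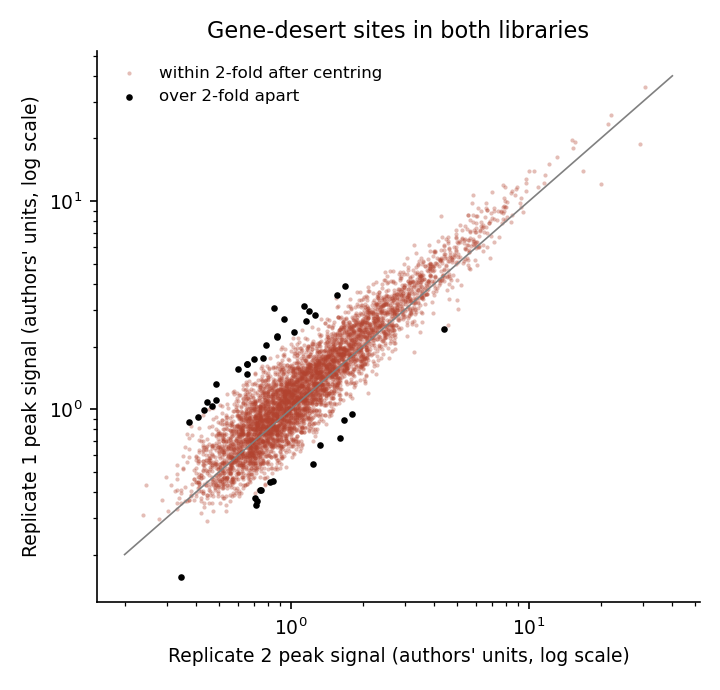
Peak signal of each of the 5227 gene-desert sites in replicate 2 (x axis) and replicate 1 (y axis), both in the authors' units on log scales, with the line of equal values in grey. The 39 black points are the sites that differed more than 2-fold between replicates after centring, and the other points lie along the line.

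CTCF matches were less frequent in the deserts and CAGCTG was more frequent. A CTCF consensus match lay within the central 150 bp of 300 gene-desert sites, 5.74% against 10.48% of nearer intergenic sites, a difference of -4.74 percentage points (95% Newcombe interval -5.50 to -3.94). CAGCTG was found at 1512 gene-desert sites, 28.9% against 23.3%, a difference of 5.63 points (4.27 to 7.02). At sites inside protein-coding genes the shares were 8.23% for CTCF and 26.3% for CAGCTG, between those of the gene-desert and the nearer intergenic sites. These intervals cover counting error over sites, and no test between conditions was possible in 1 group. With the nearer intergenic sites reweighted to the signal levels of the gene-desert sites, the differences were -2.78 points for CTCF and 5.67 for CAGCTG, and with reweighting to the GC content they were -6.22 and 7.22.

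The DNA beside the sites gave the local background. In 9880 windows of 150 bp, placed 1 kb to each side of the gene-desert sites and clear of any permissive peak, CAGCTG was present in 5.96%, so that the sites held it 4.85 times as often (4.44 to 5.30). Beside nearer intergenic sites CAGCTG was present in 6.99%, and the ratio there was 3.33 (3.17 to 3.49). CTCF was found in 4 of the 9880 windows beside gene-desert sites (0.0405%), and in 0.0647% of those beside nearer sites. The 5.74% at gene-desert sites was 142 times their background (52.9 to 380), and the nearer sites were at 162 times theirs (105.4 to 249), so that these ratios overlapped within counting error.

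**Figure D3:**
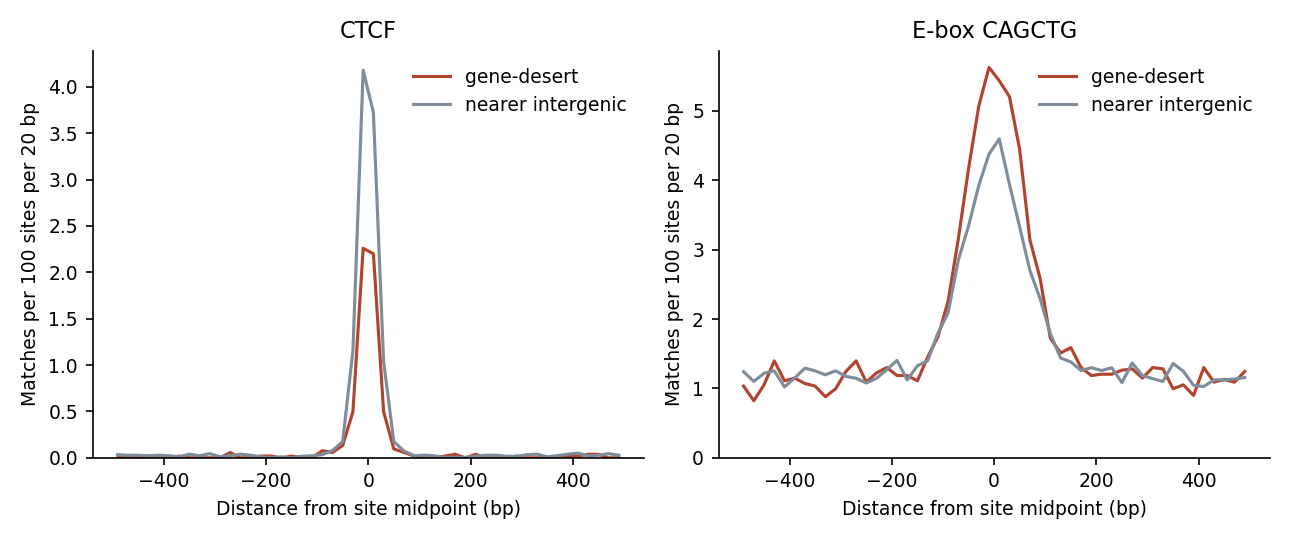
Matches per 100 sites in bins of 20 bp against the distance from the site midpoint (bp), for CTCF (left) and CAGCTG (right), at gene-desert sites in red and nearer intergenic sites in grey. Both motifs peak at the midpoint, and just left of it gene-desert sites have 2.26 CTCF and 5.62 CAGCTG matches per 100 sites.

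Along the distance scale CAGCTG went from 20.4% of sites at 1 to 10 kb to 23.9% at 10 to 50 kb, 25.7% at 50 to 100 kb, 28.3% at 100 to 200 kb and 30.1% at 200 to 300 kb. Beyond that it was 29.2% at 300 to 500 kb and 30.2% at 500 to 1000 kb, within counting error of the preceding value, and among the 50 sites beyond 1000 kb it was 24.0% (14.3 to 37.4). CTCF went from 12.1% at 1 to 10 kb to 4.75% (3.53 to 6.36) at 300 to 500 kb, and was 7.04% (4.78 to 10.3) at 500 to 1000 kb and 8% (3.16 to 18.8) beyond 1000 kb. The last 2 intervals overlapped that of 300 to 500 kb. Sites with a CTCF match were also the stronger ones. The 300 gene-desert sites with CTCF had a median signal of 1.501 in replicate 1 and 1.413 in replicate 2, the 1482 with CAGCTG and no CTCF had 1.23 and 1.10, and the 3445 with neither had 1.19 and 1.05. CAGCTG occurred at 31.0% of gene-desert sites (27.8 to 34.5) in the strongest of the same 4 parts and at 27.7% (25.9 to 29.6) in the weakest, and these intervals overlapped.

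Of 33 motifs searched, 8 had a higher share at gene-desert than at nearer intergenic sites with an interval above 0, 6 had a lower share with an interval below 0, and 19 had an interval that spans 0. The intervals were not adjusted for the number of motifs. Among the 8, the glucocorticoid receptor palindrome rested on 2 gene-desert sites against 0 nearer ones. Among the 6, the TBX motif was at 8 gene-desert sites and the ETS motif at 14. The NFI half-site TTGGCA, bound by nuclear factor I proteins, was present at 20.9% of gene-desert sites against 15.6% of nearer ones (difference 5.26, 4.06 to 6.50), and the E-box CATCTG at 19.6% against 16.1% (3.49, 2.30 to 4.71). Lower shares were found for GGGCGG, bound by SP and KLF factors at many CpG-rich promoters, at 7.75% against 12.02% (-4.27, -5.11 to -3.38, with -2.36 at the same signal and -1.35 at the same GC), for the E-box CAGGTG, bound by ZEB and SNAI repressors, at 9.93% against 12.5% (-2.57, -3.49 to -1.60), and for CACGTG, the E-box of MYC and the clock factors, at 2.39% against 3.54%. The TEAD motif ACATTCC was at 3.33% against 2.81%, with a lower bound of 0.00124 points. The intervals of the AP-1 motif TGACTCA (6.73% against 6.47%) and of MEF2 (0.459% against 0.545%) spanned 0. MEF2 matches were few, at 24 gene-desert sites, and their ratio to the flanking windows was 1.33 (0.792 to 2.25), against 2.18 (1.63 to 2.93) at nearer intergenic sites.

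**Figure D4:**
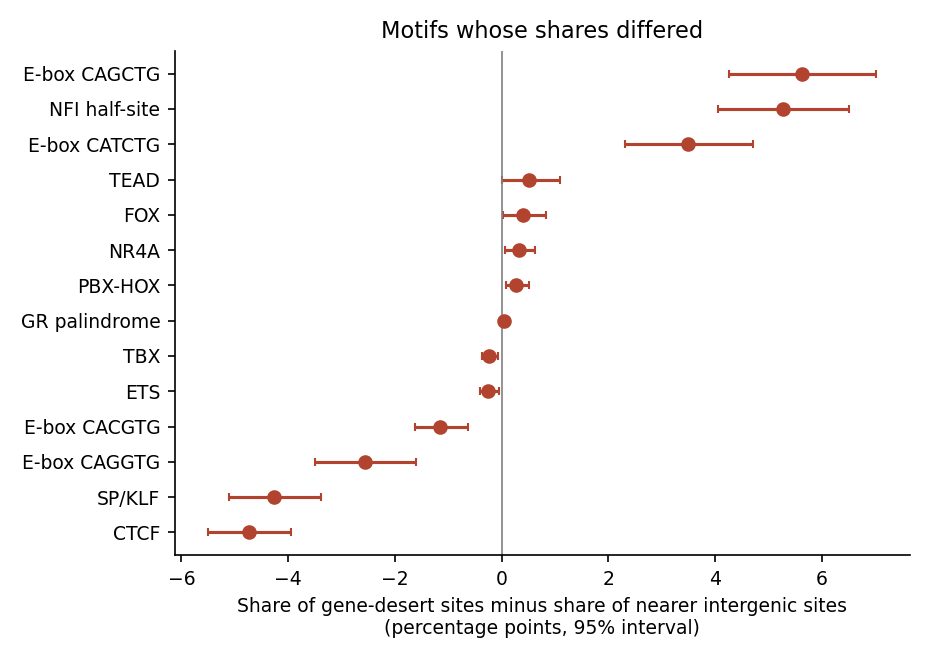
Difference in the percentage of sites with a motif, gene-desert minus nearer intergenic (percentage points, x axis, with 95% Newcombe intervals), for the 14 motifs whose interval does not include 0. CAGCTG at 5.63 and the NFI half-site at 5.26 are highest, and CTCF at -4.74 and SP/KLF at -4.27 are lowest. The glucocorticoid receptor (GR) palindrome rests on 2 gene-desert sites.

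The base composition differed too. The median GC content of the 150 bp was 52.7% at gene-desert sites and 54.7% at nearer intergenic sites. CpG-rich sites, with GC above 55% and a CpG ratio of observed over expected above 0.65, were 146 gene-desert sites or 2.79% (2.38 to 3.28), against 7.25% of nearer sites. Of these 146, 58 lay within 1 kb of the start of a non-coding gene. The midpoint lay in soft-masked repeat sequence at 5.93% of gene-desert sites (5.32 to 6.60) and at 7.07% of nearer ones, a difference of -1.14 points (-1.86 to -0.369) whose interval included 0 under 6 alternatives, in deserts whose DNA was 39.7% soft-masked and nearer intergenic DNA that was 38.8% soft-masked.

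Nearly all gene-desert sites held footprints. A footprint overlapped 96.8% of them in replicate 1 and 96.5% in replicate 2, and 94.4% had one in both, against 95.6% of nearer intergenic sites, a difference of -1.20 points (-1.92 to -0.532). Against nearer sites reweighted to the gene-desert signal the difference had the opposite sign, at 2.35 points. Without replicate 1 the difference was -0.335 points (-1.10 to 0.393), an interval that includes 0. Gene-desert sites held 2.74 footprints on average in replicate 1 and 2.51 in replicate 2, against 3.02 and 2.78 at nearer intergenic sites. Of 301 CTCF matches in gene-desert sites, 92.4% (88.8 to 94.9) overlapped a footprint in both libraries, against 97.8% (96.98 to 98.3) of those in nearer sites. For NFI half-sites it was 50.6% (47.8 to 53.3) against 51.7% (49.9 to 53.5), for CAGCTG 23.5% (21.6 to 25.5) against 26.9% (25.7 to 28.2), and for AP-1 17.6% against 21.6%. CTCF matches thus overlapped a footprint more often than CAGCTG matches, in both classes. The CTCF motif is longer, with 12 bases against 6, and lay nearer the midpoint, at a median of 11 bp against 31 bp. These differences were not adjusted for, and no background share of bases in footprints was set beside the shares. The sites with most footprints were chr9:61655481-61656000, 246 kb from the corepressor gene Tle3, with 10 in replicate 1 and 9 in replicate 2, chr17:85800081-85801020 near the homeobox gene Six2, with 9 and 10, and chr8:126735961-126736360, 142 kb from Irf2bp2, with 10 and 7.

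Part of the gene-desert sites lay in or near non-coding genes. Of the 5227 sites, 1040 (19.9%, 18.8 to 21.0) had their midpoint in the body of a long non-coding RNA gene, 286 (5.47%) lay within 1 kb of the start of one, and 3961 (75.8%) lay neither in nor within 1 kb of the start of any annotated gene. The sites at long non-coding RNA starts had a median signal of 1.45 in replicate 1 and 1.31 in replicate 2, against 1.19 and 1.06 for sites at no annotated gene. Among the 100 gene-desert sites with the highest signal, 21 lay within 1 kb of a non-coding start and 35 in a non-coding body. Over all gene-desert sites these shares, for any non-coding gene, were 7.21% and 20.9%. The share of desert DNA in non-coding genes was not counted, so that the shares of sites have no background.

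Of the 10 strongest gene-desert sites, 8 lay in or near the start of a non-coding gene. After the Gm21769 site came chr17:39846781-39846880, inside CT010467.1, annotated as a ribosomal RNA gene, and next to Gm42418, with 18.8 in replicate 1 and 29.4 in replicate 2. The shared sites were not filtered for sequence present in many copies. Next was chr13:107890121-107890340, with 25.8 and 22.1, at the start of Zswim6, which GENCODE lists here as non-coding and RefSeq as protein-coding. chr15:68363201-68363440, at the start of the non-coding gene Gm20732, had 23.5 and 21.5. chr1:23256061-23256280, at the unverified transcript Gm6420, had 19.2 and 15.6, chr16:25059241-25059500, at A230028O05Rik, had 19.6 and 15.1, and chr1:7397861-7398040, at Gm26901, had 18.1 and 15.3. The 10 strongest include E-box site 1 above, which is also in Zswim6. By RefSeq, 2 of the 8 were thus at a protein-coding gene. Of the 2 at no annotated gene, one was chr1:122357141-122357300, 789 kb from Ddx18, with 12.1 in replicate 1 and 20.01 in replicate 2, and the other chr10:126511601-126511820, 390 kb from Atp23, with 14.0 and 16.9. By the RefSeq annotation, 72 of the 5227 sites (1.38%) lay in or within 1 kb of a protein-coding gene, in 38 genes led by Trerf1 with 7 sites and by Rad51b, Zfp536 and Zswim6 with 5 each.

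Of the 5 farthest sites, 2 had a signal above the median of the gene-desert sites in both replicates. The site farthest from any protein-coding TSS, chr14:90935741-90935898, lay 2464 kb from Pcdh20 and had 0.360 in replicate 1 and 0.552 in replicate 2. At 2195 kb from Pik3c3, chr18:28077761-28078040 had 3.15 and 2.26, and at 2140 kb from Cdh20, chr1:102628161-102628320 had 5.33 and 6.88, rank 112 of all gene-desert sites. The remaining 2 lay in the non-coding gene C130073E24Rik, 2072 and 2073 kb from Tenm3, at chr8:50915901-50916140 with 1.39 and 0.984 and at chr8:50916321-50916720 with 0.473 and 0.299.

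The sites were spread unevenly over the gaps between neighbouring protein-coding genes. Such gaps held at least 1 gene-desert site in 1052 cases, with a median of 3 sites per gap and 1 site in 296 gaps. The 152 gaps with 10 or more held 2421 sites, or 46.3% of all. The median distance between neighbouring gene-desert sites was 37.4 kb.

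Among gaps with at least 5 gene-desert sites, the Zfp36l1 desert was the most densely filled. Zfp36l1 encodes an RNA-binding protein that promotes decay of AU-rich messages, and the gap between it and Rad51b on chromosome 12 held 31 gene-desert sites in 0.293 Mb, or 105.8 per Mb. Their signals ran from 0.982 to 7.998 in replicate 1 (median 1.84) and from 0.957 to 6.85 in replicate 2 (median 1.64). Of the 31, 11 held CAGCTG, 0 held an exact CTCF match and all had a footprint in both libraries. Over all gene-desert sites, CAGCTG was present at 28.9%, CTCF at 5.74% and a footprint in both libraries at 94.4%. Of the 31 sites, 5 lay in or within 1 kb of a protein-coding gene by RefSeq. The next densest by whole gap were that between Disc1 and Sipa1l2 on chromosome 8, with 13 sites or 83.2 per Mb, and that between Ly86 and Rreb1 on chromosome 13, with 28 sites or 77.9 per Mb.

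By number of sites the Myc desert led. Myc encodes a transcription factor that drives cell growth. The gap of 1.79 Mb between it and Gsdmc on chromosome 15 held 42 gene-desert sites, or 23.5 per Mb of the whole gap. Their signals ran from 0.396 to 6.59 in replicate 1 (median 0.968) and from 0.359 to 5.37 in replicate 2 (median 0.901). Of the 42, 27 lay in the body of a non-coding gene, 15 of them in Pvt1, the long non-coding RNA next to Myc. CAGCTG was present at 14 of the 42 and an exact CTCF match at 0, against 28.9% and 5.74% of all gene-desert sites. The gap between Gm5148 and Ankrd50 on chromosome 3 held 39 sites, 18 with CAGCTG, that between the proliferation gene Mki67 and the DNA-repair gene Mgmt on chromosome 7 held 34, 15 with CAGCTG, and that between Cd83 and Jarid2, a partner of Polycomb repressive complex 2, on chromosome 13 held 32, 10 with CAGCTG. An exact CTCF match was present at 0 sites in each of these 3 gaps as well.

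Over all gaps, exact CTCF matches were less frequent at the sites of crowded deserts. Binding of CTCF was not measured, and sites with an inexact motif were not counted. In the 152 gaps with 10 or more gene-desert sites, 82 of 2421 sites held CTCF, or 3.39% (2.74 to 4.18). In the 436 gaps with 3 to 9 sites it was 7.13% (6.12 to 8.29), and in the 464 gaps with 1 or 2 sites it was 9.97% (7.87 to 12.55). CAGCTG did not follow this order, at 28.8%, 29.0% and 29.0%. Sites in the crowded gaps were stronger, with a median of 1.32 in replicate 1 and 1.14 in replicate 2, against 1.01 and 0.931 in gaps with 1 or 2 sites, and lay farther from a TSS, at a median of 220 kb against 141 kb. Sites of a gap share their surroundings, so that the intervals, which count each site as independent, are too narrow.

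**Figure D5:**
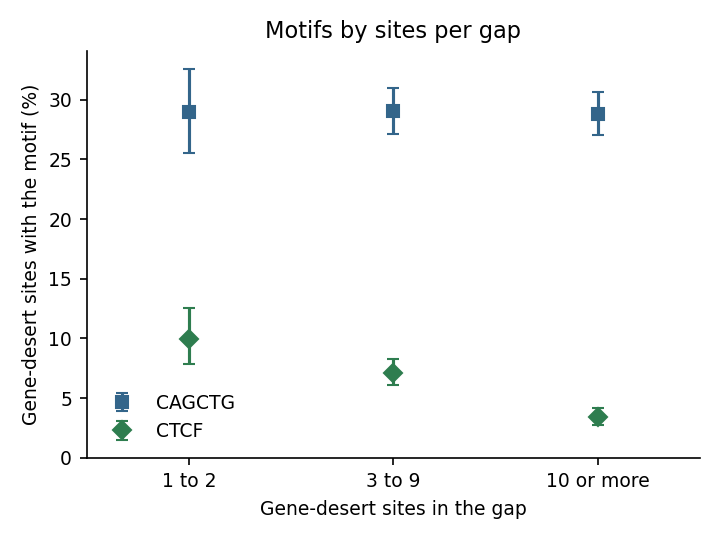
Percentage of gene-desert sites with CAGCTG (squares) and with an exact CTCF match (diamonds), with 95% Wilson intervals, by the number of gene-desert sites in the gap between protein-coding genes (x axis). CTCF is at 9.97% in gaps with 1 to 2 sites and at 3.39% in gaps with 10 or more, while CAGCTG stays near 29.0%.

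The longest unbroken run lay on chromosome X in Firre, an X-linked long non-coding RNA gene known in the mouse for binding CTCF and for contacts between chromosomes. With neighbours at most 10 kb apart counted as 1 run, a spacing chosen after the data were seen, it held 26 sites over 62.4 kb, all in the Firre body of 79.6 kb. Their median signals were 2.85 (replicate 1) and 2.34 (replicate 2) and their highest 8.98 and 6.29, with the medians above the 1.21 and 1.07 over all gene-desert sites. None of the 26 held the CTCF consensus as an exact match and 3 held CAGCTG, against 5.74% and 28.9% of all gene-desert sites. The 26 were among the 145 gene-desert sites of chromosome X. After Firre, the non-coding genes with most sites, named after their values were seen, were 2610307P16Rik with 19, Gm14005 with 17, and 3110039I08Rik and Pvt1 with 15 each. The strongest site among these 4, in 3110039I08Rik at chr9:41461861-41462040, had 14.0 in replicate 1 and 10.02 in replicate 2.

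In all there were 46 runs of 5 or more sites, together holding 289 sites, while 2898 sites (55.4%) had no neighbour within 10 kb. A run of 10 sites over 26.8 kb near Haao, a tryptophan-metabolism gene, had its strongest site at 10.03 in replicate 1 and 7.93 in replicate 2, and one of 10 over 16.2 kb, 254 to 270 kb from Nfe2l3, had its strongest at 11.7 and 10.9. Runs of 7 sites lay in the Zfp36l1 desert over 26.6 kb, near Ly86, an immune receptor subunit gene, over 16.4 kb, and around the Zswim6 start over 20.3 kb. Among pairs of neighbouring CTCF matches that both lay in deserts, 21 of 82 pointed toward each other, 23 away from each other and 38 the same way. The share pointing toward each other was 25.6% (17.4 to 36.0) in gene deserts and 26.3% (24.95 to 27.6) in all other pairs.

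Sites were assigned to the nearest protein-coding TSS to show which genes border filled deserts, and this assignment is a position, not a measured target. Of 2881 genes with desert DNA nearest to them, 1467 (50.9%) had at least 1 site and 103 had 10 or more. The genes with most were Zfp36l1 with 31, the zinc-finger gene Zfp608 with 30, Myc with 29, the olfactory receptor gene Olfr1324 next to Firre with 28, the transcription factor gene Maf with 23, Gm5148 with 22, Mki67 with 21, Jarid2 and Ly86 with 20 each, and Arid1b, Bcor and Mctp2 with 19 each. Around Jarid2 the median signal was 2.12 in replicate 1 and 1.71 in replicate 2, with the strongest site at 10.6 and 8.73, whereas around Maf it was 1.09 and 0.971 with the strongest at 4.46 and 2.84.

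The number of sites per Mb of desert differed among lists of neighbouring genes. A list of 70 developmental factors often flanked by deserts, 69 of them in the annotation, had 56 members with desert DNA, of which 45 had a site, with 284 sites in 25.9 Mb or 10.9 per Mb (9.71 to 12.3). The rate for all protein-coding genes was 6.75 (6.57 to 6.93). A list of 73 neuronal adhesion genes had 69 with desert DNA, of which 37 had a site, with 84 sites in 79.5 Mb or 1.06 per Mb (0.842 to 1.31). The sites beside adhesion genes were also weak, with a median of 0.791 in replicate 1 and 0.768 in replicate 2. An exact CTCF match was present at 8 of the 84, or 9.52% (4.91 to 17.7). Beside the developmental factors one was present at 8 of the 284, or 2.82% (1.43 to 5.46). Over all gene-desert sites the share was 5.74%. The cadherin and teneurin families in the adhesion list mediate contacts between neurons. Its 2 genes with most sites were Tenm3, with 11 in 2.23 Mb or 4.92 per Mb, and Pcdh18, with 9 in 1.59 Mb or 5.67 per Mb. The median was 0.366 per Mb over the adhesion genes, 7.71 over the developmental factors and 0.776 over all genes with desert DNA. Density and signal also fell with distance from a TSS. The lists were not matched for distance, so that list and distance cannot be told apart.

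Over all 21911 protein-coding genes, 13.1% had desert DNA, 50.9% of these had a site, and the rate was 6.75 sites per Mb. Of 28 myogenic factors, 12 had desert DNA and 10 of them a site, 43 sites in all or 12.52 per Mb (9.06 to 16.9). Tcf4, the E-protein gene on chromosome 18, led with 11 sites, the strongest at 9.31 in replicate 1 and 7.11 in replicate 2. The nuclear factor I gene Nfib followed with 8, of which 6 held CAGCTG, against 28.9% of all gene-desert sites. Of 33 limb and Hox regulators, 20 had desert DNA, with 73 sites or 11.9 per Mb, led by the T-box gene Tbx3 with 15, the strongest at 8.59 and 5.52, and Zeb2 with 14. Of 32 sarcomere genes only 2 had desert DNA, with 4 sites for Myom2 and 1 for Nebl. Of 20 excitation-contraction genes 2 had any, with 4 sites at the potassium channel gene Kcnj2, and of 14 genes of the dystrophin complex 6 had any, with 8 sites or 4.24 per Mb (1.83 to 8.35), 5 of them at Sntb1 and 2 at Utrn. Without Sntb1 the rate was 1.88 (0.388 to 5.50).

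In the list of clock and metabolic genes, 10 of 26 had desert DNA and 4 of them a site, with 22 sites or 12.95 per Mb (8.12 to 19.6), and 7.66 (3.83 to 13.7) without Foxo1. Foxo1, a transcription factor of muscle atrophy that is also in the developmental list, had 11, with the strongest at 9.82 in replicate 1 and 5.78 in replicate 2, and Ppargc1a, the coactivator of mitochondrial biogenesis, had 7, with the strongest at 1.42 and 1.36. Lists for other cell types in the tissue were counted in the same way, beside the 50.9% with a site over all genes with desert DNA. In the fibroblast and tendon list 7 of 12 genes with desert DNA had a site, with 24 sites or 14.7 per Mb (9.40 to 21.8), with 5 at the proteoglycan gene Dcn, where the median was 3.44 in replicate 1 and 2.78 in replicate 2, and 6 at Osr1. In the endothelial and pericyte list 3 of 4 had a site, with 17 sites or 20.6 per Mb (12 to 33.0), 11 at Cdh5 and 4 at Kdr. In the satellite-cell list 2 of 4 had a site, with 7 sites at Cxcr4 and 1 at Hey1, and in the Schwann-cell list 1 of 2, with 4 sites at Pmp22. In the macrophage and lymphocyte list the 1 gene with desert DNA, Ptprc, which encodes the leukocyte protein CD45, had 11 sites. The median there was 1.35 (replicate 1) and 1.32 (replicate 2). Of the 11, 6 held CAGCTG, against 28.9% of all gene-desert sites. Of 1512 chemosensory receptor genes, 41 had desert DNA and 8 a site, 50 in all, of which 28 were those at Olfr1324 and 8 those at Olfr1505. Their rate was 12.83 per Mb (9.52 to 16.9), and 5.97 (3.74 to 9.03) without Olfr1324, which lies next to Firre. The rates of the lists with 1 or 2 genes in deserts rest on those genes alone.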

How the data were processed

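The authors deposited, for each library, strict and permissive peak lists, footprints and per-base values on mm10, per the labels. The deposited peak signal is the authors' value per peak, of unstated scaling, and the deposited per-base files list q-values (false discovery rates) below 0.05. Aligner, peak caller and library depth: not given in the sources used here. Intervals cover counting error over sites only. Strict peaks of both libraries were merged at 1 bp overlap, and a site took the highest peak signal of each library. Positions were set against the GENCODE annotation with 21938 protein-coding gene records, and sequence came from the RefSeq GRCm38 genome. Densities leave out chromosome Y and unsequenced bases.

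Both strands of the central 150 bp of each site were searched for motifs without mismatches, and overlapping matches were each kept. Searched by name were CTCF, MEF2, CArG, the NFI palindrome and the glucocorticoid receptor palindrome. Searched by letters were the E-box CAGCTG, the MYC-type E-box CACGTG, the ZEB-type E-box CAGGTG, the further E-box CATCTG, MEF3 TCAGGTTTC, TEAD ACATTCC, AP-1 TGACTCA, CREB TGACGTCA, NFI half-site TTGGCA, RUNX TGTGGTT, ETS CCGGAAGT, SP/KLF GGGCGG, NRF1 GCATGCGC, NFY CCAATCA, YY1 CAAGATGGC, REST TTCAGCACC, GR short ACANNNTGT, NR4A AAAGGTCA, ESRR TCAAGGTCA, FOX TGTTTAC, SOX ACAATGG, homeodomain TAATTA, PBX-HOX TGATTTAT, the GATA-factor motif AGATAA, TBX TCACACCT, PU.1 GAGGAAGT, OCT ATGCAAAT and HNF4 CAAAGTCCA.

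Named were the strongest and farthest sites, those strongest with each main motif, those most different between libraries or with most footprints, the genes and gaps with most sites, and, of each of 14 lists, the 2 genes with most sites, or 1 where no other had any. Members, lists and rules were chosen with earlier results of these data known. The tests on simulated data recovered planted sites and motifs. Python 3.11.15, numpy 2.4.6, pandas 2.3.3, scipy 1.17.1 and matplotlib 3.10.9 were used.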

Additional observations from a re-analysis of the deposited data

How the results depend on the processing

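The number of gene-desert sites was 9998 with the permissive lists, 1274 when only the upper 50% of all shared sites by signal was kept, 2418 beyond 200 kb and 665 when all annotated genes entered the rule, and 6133 and 7363 with 1 library alone. The signal difference to nearer intergenic sites (log2, -0.56) kept its sign throughout, at -0.66 with the permissive lists, -0.14 in the upper 50%, -0.56 with 50% reciprocal overlap, -0.67 beyond 200 kb, -0.66 with all genes, -0.56 without sites at RefSeq coding genes, -0.49 against all other sites outside promoters, and -0.58 to -0.55 with 1 library alone.

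The CTCF difference stayed negative and the CAGCTG difference positive under all 13 alternatives each. In percentage points CTCF was at -3.89 with the permissive lists, -5.54 in the upper 50%, -3.57 with all genes, -3.51 against all other sites outside promoters, -2.78 at the same signal and -6.22 at the same GC, and from -4.33 to -4.14 with 1 library alone. CAGCTG was at 3.66, 7.63, 6.60, 3.99, 5.67 and 7.22 under these settings in turn, and from 4.62 to 5.19 with 1 library alone. The footprint difference (-1.20) was not stable in size or sign. It was -10.7 with the permissive lists, 0.103 in the upper 50%, 0.132 with all genes, -0.0536 for a footprint in either library and 2.35 at the same signal, and from -1.63 to -0.335 with 1 library alone. Its interval included 0 in the upper 50%, with all genes, for a footprint in either library and without replicate 1 (-1.10 to 0.393). The repeat difference was -0.218 with the permissive lists, -0.173 in the upper 50% and -0.340 with all genes, and -1.12 to -0.559 with 1 library alone. Its interval included 0 under these 3 settings and also without replicate 2 (-1.21 to 0.126), beyond 200 kb (-1.99 to 0.0182) and against all other sites outside promoters (-1.35 to 0.0262). The cause of these shifts was not tested beyond the signal and GC settings, which, like the RefSeq setting, were chosen after seeing the data. The 10 kb spacing of runs replaced one of 12.5 kb after its counts were seen, which gave 57 runs of 5 or more sites and a longest run of 28, against 46 and 26. No paired analysis was possible because there was 1 group. Depth could not be judged, as read totals were not given in the sources used here.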
